A study of Mus musculus with 8 samples.

Results

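Transcripts of matrix metalloproteinases (MMPs) and of the tissue inhibitors of metalloproteinases (TIMPs) were examined in CD11b+Gr-1hi and CD11b+Gr-1lo cells of sanroque mice. The members are 8 genes chosen by symbol, namely Mmp8, Mmp9, Mmp25, Mmp19, Mmp14, Timp1, Timp2 and Timp3, and each matched 1 of the 54188 rows of the count table. Of these, 7 had enough counts to be tested, and Timp3 did not. Sanroque mice are C57BL/6 animals homozygous for the san allele of Roquin, which develop a lupus-like disease, and every group carries this genotype at an age of about 20 weeks and the label female, so no group shows the wild-type level. Cells were sorted with antibodies to CD11b and Gr-1 from the spleen (SP) or the bone marrow (BM). The Gr-1hi cells, labelled G-MDSC, and the Gr-1lo cells, labelled M-MDSC, gave 2 libraries for each tissue. Libraries 5 and 6 are SP Gr-1hi, 7 and 8 SP Gr-1lo, 9 and 10 BM Gr-1hi, and 11 and 12 BM Gr-1lo.

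MMPs are zinc-dependent proteases that are made as inactive precursors and, once activated, cut proteins of the extracellular matrix and many soluble mediators. TIMPs bind the active site of these enzymes and block it. Neutrophils store MMP8 (neutrophil collagenase) in secondary granules and MMP9 (gelatinase B) in tertiary granules, and their precursors make the transcripts in the marrow. MMP14 and MMP25 are membrane-anchored, the former by a transmembrane segment and the latter by a lipid anchor, and MMP14 together with TIMP2 takes part in the activation of the precursor of MMP2.

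Between 33453580 and 68316154 counts per library fell on genes, and levels are given as CPM, counts scaled to a common library size by TMM normalization. The 2 libraries of a group are described as independent biological replicates, and no label says which libraries share a mouse. Markers followed the sort. The summed level of 6 neutrophil markers was 56650 to 94510 CPM in Gr-1hi and 2879 to 6449 CPM in Gr-1lo libraries, and that of 6 monocyte markers was 192 to 438 CPM in Gr-1hi and 5561 to 8648 CPM in Gr-1lo libraries. Libraries did not all match the label of female mice. Xist, which is transcribed from an inactive X chromosome, was abundant in library 5 (12032 counts) and library 7 (9898) and had no more than 5 counts elsewhere, whereas the Y-linked Ddx3y had 0 counts in library 5 and 1595 to 4902 in the other 7. Libraries 5 and 7 are both from SP, and no BM library had abundant Xist. What sets libraries 5 and 7 apart can therefore not be fully separated from tissue in SP against BM and interaction results. For some members, results that rest on libraries 5 and 7 are therefore also given without them. In such bulk samples, fewer cells of a type and less RNA per cell cannot be told apart.

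Upstream sequences were available for 6 of the 8 genes, in RefSeq's GRCm38.p6 annotation. Those of Mmp8 and Mmp25, which were both far higher in Gr-1hi cells, and of Mmp14, which was higher in spleen, are shown to let the regions of genes with shared and with opposite patterns be compared. Each is written 5′ to 3′ on the strand of its gene and ends just before the annotated start (chr9:7558179-7558428, plus strand, and chr14:54431348-54431597, plus strand) or 8 bases before it (chr17:23645278-23645519, minus strand). Capitals mark matches on either strand to AGGAAG (ETS core), TTNCNNAA (C/EBP) and GGGCGG (GC box).
Mmp8: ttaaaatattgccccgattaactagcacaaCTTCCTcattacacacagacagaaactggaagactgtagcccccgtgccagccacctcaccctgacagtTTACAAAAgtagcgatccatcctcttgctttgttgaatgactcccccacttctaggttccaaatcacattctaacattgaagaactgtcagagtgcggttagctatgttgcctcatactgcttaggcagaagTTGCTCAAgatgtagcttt
Mmp25: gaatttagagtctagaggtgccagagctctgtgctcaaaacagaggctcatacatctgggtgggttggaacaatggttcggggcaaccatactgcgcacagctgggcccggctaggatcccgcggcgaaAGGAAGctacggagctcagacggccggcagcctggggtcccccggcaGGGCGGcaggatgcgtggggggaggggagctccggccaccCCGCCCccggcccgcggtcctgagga
Mmp14: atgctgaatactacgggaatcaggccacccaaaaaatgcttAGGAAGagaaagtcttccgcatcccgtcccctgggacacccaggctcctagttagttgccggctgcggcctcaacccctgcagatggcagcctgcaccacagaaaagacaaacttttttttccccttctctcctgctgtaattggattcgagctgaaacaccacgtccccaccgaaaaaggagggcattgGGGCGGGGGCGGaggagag
The Mmp8 region held 2 C/EBP matches, at bases 151 to 144 and 19 to 12 before the start, 1 ETS match and no GC box. The Mmp25 region held 2 GC boxes and 2 ETS matches, of which the latter of the ETS matches lies at bases 12 to 7 before the start and runs past the end of the sequence shown. The Mmp14 region held 2 adjoining GC boxes at bases 19 to 14 and 13 to 8, and 1 ETS match. A TATA box, searched as TATAAA on both strands, was in none of the 6 regions. The AP-1 motif, searched as TGANTCA, was likewise in none. Of 32841 regions of the same length, 250 bases, 36.9% held the C/EBP letters, 29.5% the ETS, 32.8% the GC box, 12.4% the TATA box and 6.75% the AP-1 letters, so such matches are common and mark letters only.

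The first question was how the subsets differ within a tissue. Mmp8, Mmp9, Mmp25 and Timp2 were higher in Gr-1hi cells of both tissues, Mmp19 was higher in Gr-1lo cells of both, and Mmp14 was also higher in Gr-1lo cells but by a smaller factor. Differences are given as the log2 FC ± SE from a quasi-likelihood fit in edgeR, with p adjusted over 17650 genes (Benjamini-Hochberg). A gene was called between subsets at a fold change (FC) above 8 and an adjusted p below 0.01, the thresholds of the study. In BM, 4 of the 7 genes tested were called higher in Gr-1hi and 1 lower, against 6.56% and 10.1% of all genes tested (16.7% in either direction). In SP the counts were again 4 and 1, against 4.44% and 2.93% of all genes (7.37% in either direction). At an FC of at least 2 and an adjusted p of at most 0.05, Mmp14 joined the lower genes in both tissues, which made 4 higher and 2 lower, against 24.2% and 33.1% of all genes in BM and 22.3% and 27.4% in SP. The median log2 FC of the 7 genes was 4.48 in BM and 3.47 in SP, against -0.175 and -0.09 over all genes.

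**Figure D1:**
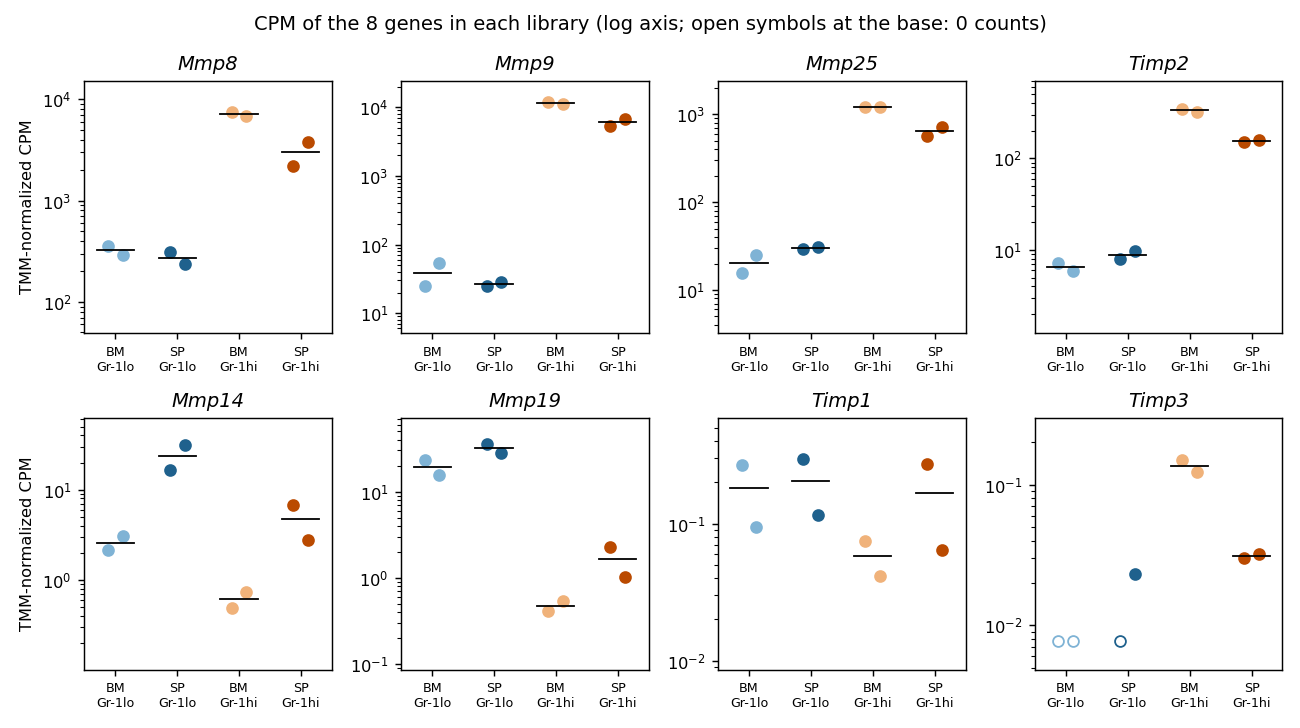
TMM-normalized CPM (log axis) of the 8 genes in each of the 8 libraries, with a bar at the mean of the 2 libraries where both had counts; open symbols at the base are libraries with 0 counts. Mmp8, Mmp9, Mmp25 and Timp2 are highest in BM Gr-1hi, Mmp14 and Mmp19 are highest in SP Gr-1lo, and no library exceeds 0.3 CPM of Timp1 or Timp3.

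Mmp9 (ENSMUSG00000017737, GRCm38 chromosome 2 from 164940780 to 164955850) showed the largest subset difference of the members. It had 12047 and 11102 CPM in BM Gr-1hi libraries 9 and 10, and 24.7 and 53.3 CPM in BM Gr-1lo libraries 11 and 12. In SP it had 5358 and 6764 CPM in Gr-1hi libraries 5 and 6, and 24.7 and 28.3 CPM in Gr-1lo libraries 7 and 8. Every Gr-1hi library thus lay far above every Gr-1lo library. The log2 FC was 8.21 ± 0.42 (297-fold, adjusted p = 1.03e-06) in BM and 7.84 ± 0.42 (229-fold, adjusted p = 2.48e-06) in SP. In libraries 9 and 10, Mmp9 alone took 0.883% and 0.804% of all counts.

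Mmp8 (ENSMUSG00000005800, chromosome 9 from 7558456 to 7568485), whose upstream region is printed above, had a smaller subset difference than Mmp9 and a higher level in Gr-1lo cells than any other member. It had 7599 and 6799 CPM in BM Gr-1hi, against 358 and 289 CPM in BM Gr-1lo. In SP it had 2222 and 3805 CPM in Gr-1hi and 308 and 236 CPM in Gr-1lo. The subsets did not overlap in either tissue. The log2 FC was 4.48 ± 0.28 (22.3-fold, adjusted p = 2.09e-06) in BM and 3.47 ± 0.27 (11.1-fold, adjusted p = 1.04e-05) in SP. On quantile-normalized TPM the SP difference was 2.89, which is below the FC of 8.

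Mmp25 (ENSMUSG00000023903, chromosome 17 from 23628311 to 23645277), the lipid-anchored enzyme of the neutrophil surface, had 1201 CPM in each of the 2 BM Gr-1hi libraries and 15.5 and 24.9 CPM in BM Gr-1lo. In SP it had 575 and 725 CPM in Gr-1hi, and 29.4 and 31.1 CPM in Gr-1lo. The subsets were again far apart. The log2 FC was 5.89 ± 0.25 (59.3-fold, adjusted p = 2.75e-07) in BM and 4.42 ± 0.23 (21.5-fold, adjusted p = 1.56e-06) in SP.

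Timp2 (ENSMUSG00000017466, chromosome 11 from 118301069 to 118355740) was the only inhibitor of the 3 above a trace level. It had 350 and 318 CPM in BM Gr-1hi libraries 9 and 10, against 7.13 and 5.95 CPM in BM Gr-1lo. In SP it had 150 and 161 CPM in Gr-1hi, against 7.89 and 9.84 CPM in Gr-1lo. The inhibitor was therefore high in the same libraries as the 3 proteases above. The log2 FC was 5.68 ± 0.16 (51.1-fold, adjusted p = 8.23e-08) in BM and 4.13 ± 0.145 (17.5-fold, adjusted p = 3.15e-07) in SP.

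Mmp19 (ENSMUSG00000025355, chromosome 10 from 128790910 to 128800824), a secreted MMP, ran the opposite way. It had 0.411 and 0.536 CPM in BM Gr-1hi libraries 9 and 10, and 23.1 and 15.8 CPM in BM Gr-1lo. In SP it had 2.26 and 1.02 CPM in Gr-1hi, and 36.0 and 27.8 CPM in Gr-1lo. All Gr-1lo libraries exceeded all Gr-1hi libraries. The log2 FC of Gr-1hi over Gr-1lo was -5.36 ± 0.42 (adjusted p = 6.78e-06) in BM and -4.27 ± 0.34 (adjusted p = 1.17e-05) in SP. Exons of Mmp19 overlap those of Tmem198b on the other strand by 789 bases. Tmem198b had 9.06 to 13.1 CPM in the 8 libraries and so did not follow Mmp19.

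Mmp14 (ENSMUSG00000000957, chromosome 14 from 54431612 to 54445364) had 0.486 and 0.743 CPM in BM Gr-1hi, and 2.13 and 3.04 CPM in BM Gr-1lo. In SP it had 6.75 and 2.77 CPM in Gr-1hi libraries 5 and 6, and 16.4 and 31.4 CPM in Gr-1lo libraries 7 and 8. The subsets did not overlap within a tissue. The log2 FC of Gr-1hi over Gr-1lo was -2.08 ± 0.63 (adjusted p = 0.0178) in BM and -2.33 ± 0.45 (adjusted p = 0.00212) in SP, which passed an FC of 2 and an adjusted p of 0.05 but not the FC of 8. Without library 5 the SP difference was -3.13 (adjusted p = 0.00148), and without libraries 5 and 7 it was -3.52 (adjusted p = 4.93e-05), both past the thresholds.

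The other 2 inhibitors were at the limit of detection. Timp1 (ENSMUSG00000001131, chromosome X from 20870166 to 20874735) had 9 and 2 counts in SP Gr-1hi, 14 and 10 in SP Gr-1lo, 2 and 1 in BM Gr-1hi, and 13 and 5 in BM Gr-1lo. The SP Gr-1hi, SP Gr-1lo and BM Gr-1lo libraries overlapped, and its adjusted p was between 0.230 and 0.957 in all comparisons. Timp3 (ENSMUSG00000020044, chromosome 10 from 86300372 to 86349506) had 4 and 3 counts in BM Gr-1hi, 1 in each SP Gr-1hi library, 0 and 2 in SP Gr-1lo and 0 in both BM Gr-1lo libraries. The upper limit at 0 counts is 3 counts, or 0.0614 and 0.0567 CPM in libraries 11 and 12, which covers counting error only. The BM Gr-1hi libraries, with 0.149 and 0.124 CPM, lay above these limits, but Timp3 did not pass the filter and no difference was tested.

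**Figure D2:**
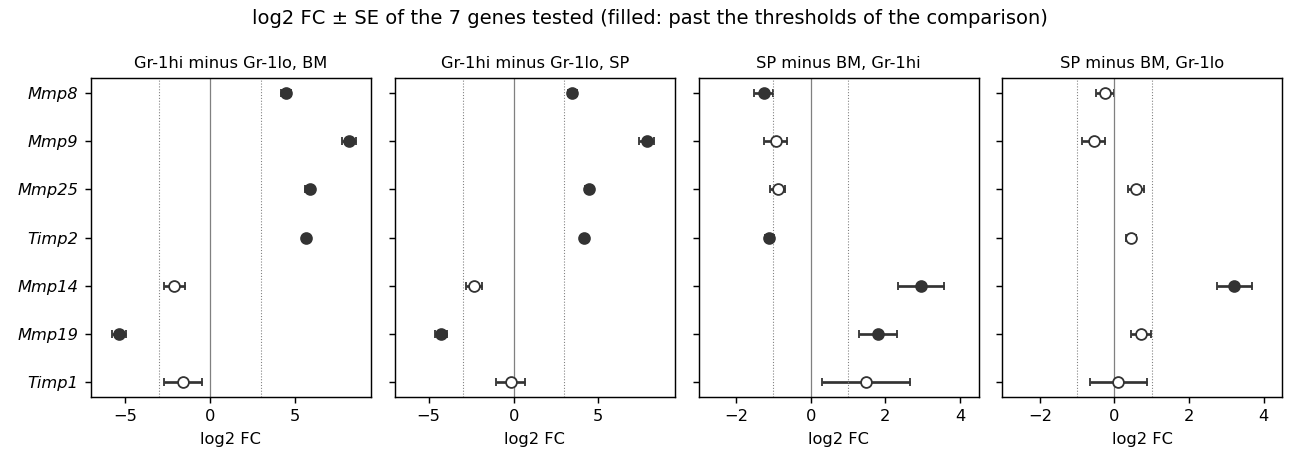
The log2 FC and its SE for the 7 genes tested in each of the 4 comparisons, with dotted lines at the FC threshold (8 between subsets, 2 between tissues) and filled symbols past both thresholds. In the panels of Gr-1hi over Gr-1lo, Mmp8, Mmp9, Mmp25 and Timp2 lie to the right and Mmp19 to the left, while in those of SP over BM Mmp14 lies to the right in both subsets.

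The next question was how spleen-derived cells differ from their BM counterparts. In Gr-1hi cells, Mmp8 and Timp2 were 2.39-fold and 2.15-fold lower in SP, and Mmp14 and Mmp19 were 7.80-fold and 3.49-fold higher. This and the comparison between subsets share libraries. In Gr-1lo cells, Mmp14 alone was called, at 9.24-fold. A gene was called between tissues at an FC of at least 2 and an adjusted p of at most 0.05. In Gr-1hi cells, 2 of the 7 genes tested were called higher in SP and 2 lower, against 14.0% and 1.48% of all genes tested (15.5% in either direction). In Gr-1lo cells 1 was called higher and 0 lower, against 3.84% and 0.215% of all genes (4.06% in either direction). At p below 0.05 without adjustment, Mmp14, Mmp25, Mmp19 and Timp2 were higher in SP and 0 were lower, against 11.8% and 8.32% of all genes. DESeq2 also called 1 of the 7 in Gr-1lo cells. The median log2 FC of the 7 genes was -0.89 in Gr-1hi and 0.45 in Gr-1lo cells, against 0.03 and -0.01 over all genes.

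Mmp14 was called higher in SP in both subsets, and its levels in the 2 SP libraries of a subset differed widely. By the values above, both SP Gr-1hi libraries exceeded both BM Gr-1hi libraries, and the same held for Gr-1lo. The log2 FC was 3.21 ± 0.47 (9.24-fold, adjusted p = 0.00753) in Gr-1lo and 2.96 ± 0.62 (7.80-fold, adjusted p = 0.00977) in Gr-1hi cells. The Gr-1hi call was lost without library 5 (log2 FC 2.10, adjusted p = 0.0555) or 9 (2.61, adjusted p = 0.0711), and the Gr-1lo call without library 11 (2.98, adjusted p = 0.0813) or 12 (3.49, adjusted p = 0.0617). On quantile-normalized TPM the Gr-1hi difference was 1.10 (adjusted p = 0.0694 by limma). That scale is the log2 of TPM + 1, which shrinks differences of genes at low levels, such as Mmp14 and Mmp19 in Gr-1hi cells. Without the filter on low counts neither passed, with adjusted p = 0.0860 in Gr-1hi and 0.0714 in Gr-1lo cells. Mmp14 kept its direction in both subsets under all 15 alternatives, which include leaving out libraries 5 and 7 together. Under these its log2 FC of SP over BM was at least 1.10 in Gr-1hi and at least 2.17 in Gr-1lo cells. Many markers of other cells moved in the same direction. The 8 markers of splenic macrophages summed to 266 to 277 CPM in SP and 135 to 161 CPM in BM Gr-1hi libraries, and to 165 to 182 and 114 to 138 CPM in Gr-1lo libraries. Hmox1, which is not particular to macrophages, made the largest part of these sums, and single markers differed more. In Gr-1lo cells 6 of the 8 were called higher in SP, among them Spic (5.44 against 0.168 CPM on average, log2 FC 5.01), Cd5l (2.14 against 0.0803 CPM, 4.70) and C1qa (5.38 against 0.773 CPM, 2.81), while Vcam1 had 32.0 against 44.8 CPM and was not called. In Gr-1hi cells 5 of the 8 were called higher, with log2 FCs from 1.12 for C1qc to 3.10 for Cd5l. Of all genes, 3.84% were called higher in SP in Gr-1lo and 14.0% in Gr-1hi cells. The 6 B cell markers summed to 288 to 423 CPM in SP and 11.2 to 14.3 CPM in BM Gr-1hi libraries, and to 54.0 to 68.1 and 7.41 to 8.95 CPM in Gr-1lo libraries. The 6 T cell markers summed to 47.0 to 74.5 and 5.36 to 8.37 CPM in Gr-1hi, and to 15.04 to 23.9 and 0.921 to 1.15 CPM in Gr-1lo libraries. None of the macrophage, B cell or T cell markers was at 0 in a whole group, and the part of these cells in the level of Mmp14 was not tested. Markers of fibroblasts and stroma, cells known for MMP14, summed to 2.86 to 5.55 CPM in SP and 6.56 to 10.1 CPM in BM Gr-1hi libraries, and to 1.08 to 1.18 CPM and 0.548 to 1.43 CPM in Gr-1lo libraries, where the tissues overlapped, with Lum at 0 in every library.

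Mmp19 had a log2 FC of 1.80 ± 0.52 (adjusted p = 0.0294) between SP and BM Gr-1hi cells. Both groups were low, with 32 to 75 counts in SP and 11 to 13 in BM. The call was lost without library 5 (log2 FC 1.03, adjusted p = 0.219), 9 (1.54, adjusted p = 0.150) or 10 (1.90, adjusted p = 0.0962), without libraries 5 and 7 (1.13, adjusted p = 0.150), and on quantile-normalized TPM (0.47, adjusted p = 0.240 by limma). Gr-1lo cells held more Mmp19, and the 6 monocyte markers summed to 317 to 438 CPM in SP and 192 to 240 CPM in BM Gr-1hi libraries, mostly through Csf1r (319 and 154 CPM on average). Csf1r and Ly86 were called higher in SP, and Ms4a6c was at 22.9 and 10.4 CPM, but Ccr2 (17.2 and 22.6 CPM), Fn1 (1.43 and 16.1 CPM) and F13a1 (1.41 and 9.62 CPM) had lower means in SP and were not called. The part of monocytes in the level of Mmp19 was not tested. In Gr-1lo cells the log2 FC was 0.71 ± 0.28 (adjusted p = 0.202).

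Timp2 had the most precise difference between SP and BM Gr-1hi cells. The 2 SP libraries (150 and 161 CPM) and the 2 BM libraries (350 and 318 CPM) each lay close together. The log2 FC was -1.10 ± 0.13 (adjusted p = 0.000653), and it was called without each library in turn. On quantile-normalized TPM it was -0.998 with an adjusted p of 0.00391 by limma, just short of an FC of 2. In Gr-1lo cells it was 0.45 ± 0.14 (adjusted p = 0.113) and not called.

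The 3 proteases that go with Gr-1hi cells also had lower levels in SP than in BM Gr-1hi libraries. Mmp8 had a log2 FC of -1.26 ± 0.25 (adjusted p = 0.00740) and was called. Without libraries 5 and 7 it was -0.90 (adjusted p = 0.00814), which is short of an FC of 2, and without the filter the adjusted p was 0.0841. Mmp25 had a log2 FC of -0.89 ± 0.20 (adjusted p = 0.0118) and Mmp9 of -0.93 ± 0.31 (adjusted p = 0.0520), so neither was called. Mmp9 passed with RLE scaling (log2 FC -1.01, adjusted p = 0.0356) and by DESeq2 (-1.01, adjusted p = 0.00268), and Mmp25 without library 6 (-1.14, adjusted p = 0.0133). The 6 neutrophil markers summed to 56650 to 65490 CPM in SP and 87320 to 94510 CPM in BM Gr-1hi libraries, a sum made mostly of S100a8 and S100a9, but they did not all run one way. Retnlg was called lower in SP (log2 FC -1.30), S100a8, S100a9 and Ly6g had -0.68, -0.68 and -0.85, Cxcr2 had 0.06, and Csf3r had 0.86, with 7972 CPM in SP and 4399 CPM in BM on average. The part of these cells in the levels of the proteases was not tested.

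In Gr-1lo cells the same 3 proteases were not called between SP and BM. Mmp8 had a log2 FC of -0.25 ± 0.25 (adjusted p = 0.624), Mmp9 of -0.56 ± 0.31 (adjusted p = 0.374) and Mmp25 of 0.58 ± 0.20 (adjusted p = 0.167). For Mmp9 the 2 BM Gr-1lo libraries decided the value. It was 0.11 without library 12 (adjusted p = 0.908) and -1.01 without library 11 (adjusted p = 0.0239), where it was called.

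The difference between the subsets was then compared between the tissues in an interaction test, which takes the log2 FC of Gr-1hi over Gr-1lo for SP and subtracts the BM value, and was called at an FC of at least 2 and an adjusted p of at most 0.05. Of the 7 genes, 2 were called with a smaller difference in SP and 0 with a larger one, against 2.00% and 7.74% of all genes tested (9.74% in either direction). Timp2 had an interaction of -1.55 ± 0.19 (adjusted p = 0.00313) and Mmp25 of -1.47 ± 0.29 (adjusted p = 0.0146). That of Mmp25 was lost without library 8 (-1.42, adjusted p = 0.0558) and without libraries 5 and 7 (-1.32, adjusted p = 0.135). Mmp8 had -1.01 ± 0.35 (adjusted p = 0.0885), Mmp9 -0.38 ± 0.44 (adjusted p = 0.601), Mmp19 1.09 ± 0.60 (adjusted p = 0.252) and Mmp14 -0.24 ± 0.83 (adjusted p = 0.871), and none of these was called. Mmp8 was called by DESeq2 (-1.03, adjusted p = 0.0170) and without library 6 (-1.54, adjusted p = 0.00479), Mmp9 without library 12 (-1.04, adjusted p = 0.0445), and Mmp19 without the filter (1.07, adjusted p = 0.0111).

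The mix of proteases was compared within each library, per kilobase of exon, which does not depend on the scaling between libraries. In the 4 Gr-1hi libraries, Mmp9 was the most abundant of the 5 MMP transcripts, with 50.3% to 59.6% of their summed CPM per kilobase, and Mmp8 followed with 36.1% to 46.3%. In the 4 Gr-1lo libraries, Mmp8 made up 78.3% to 89.8% and Mmp9 4.25% to 10.5%. The ratio of Mmp8 to Mmp9 per kilobase was 0.605, 0.821, 0.921 and 0.894 in libraries 5, 6, 9 and 10, and 18.2, 12.2, 21.1 and 7.92 in libraries 7, 8, 11 and 12. The Gr-1lo cells thus held MMP transcripts in other proportions than the Gr-1hi cells, and Mmp8 remained their most abundant MMP transcript in both tissues. Mmp19 made up 3.10% to 6.68% in Gr-1lo libraries and at most 0.0252% in Gr-1hi libraries. Mmp14 reached 1.81% and 4.23% in SP Gr-1lo libraries 7 and 8, against 0.217% and 0.354% in BM Gr-1lo libraries 11 and 12.

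**Figure D3:**
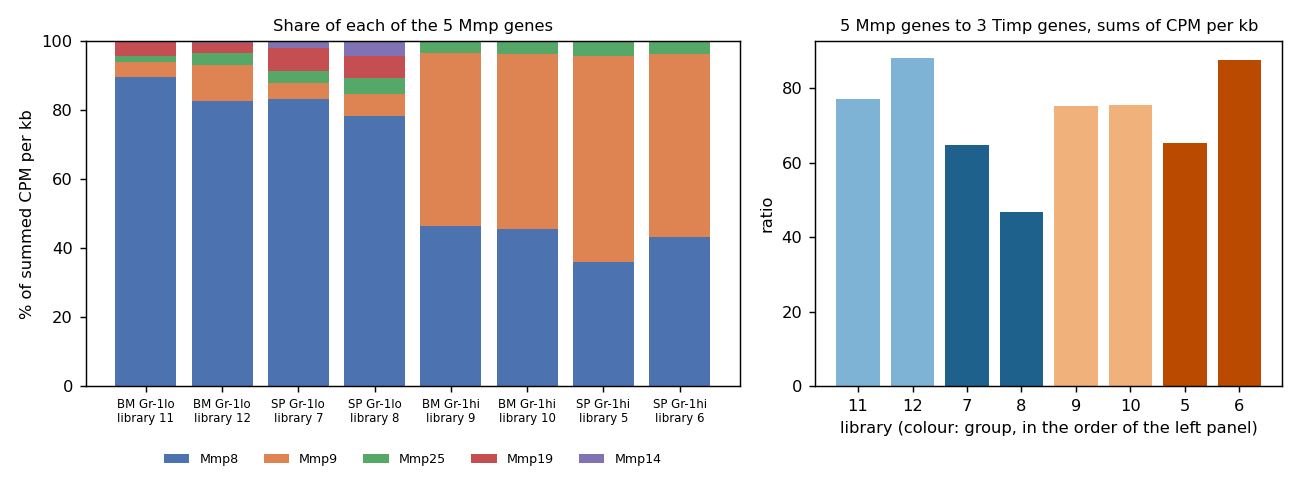
Left, the share of each of the 5 Mmp genes in their summed CPM per kilobase of exon, in each library; right, the ratio of that sum to the sum of the 3 Timp genes per kilobase. Mmp9 takes the largest share in the 4 Gr-1hi libraries and Mmp8 in the 4 Gr-1lo libraries, and the ratios of all libraries lie between 46.8 and 88.1.

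The balance of protease to inhibitor transcripts varied far less than either sum. The 5 MMP genes summed to 2540 to 6764 CPM per kilobase in Gr-1hi and 124 to 164 CPM per kilobase in Gr-1lo libraries, and the 3 TIMP genes to 38.9 to 90.0 and 1.63 to 2.66. The ratio of the sums was 65.3 and 87.6 in SP Gr-1hi, 75.1 and 75.6 in BM Gr-1hi, 64.6 and 46.8 in SP Gr-1lo, and 77.2 and 88.1 in BM Gr-1lo libraries. Of these, the SP Gr-1lo libraries were lower than the BM Gr-1lo libraries, and the SP and BM Gr-1hi libraries overlapped. Timp2 made nearly all of the inhibitor sum in Gr-1hi libraries. In Gr-1lo libraries 7, 8, 11 and 12 it made 2.03, 2.53, 1.83 and 1.53 of 2.36, 2.66, 2.13 and 1.63 CPM per kilobase. The rest there came almost wholly from Timp1, at 14, 10, 13 and 5 counts, so these ratios depend in part on trace counts. Mmp14 did not run with Timp2. The ratio of Mmp14 to Timp2 per kilobase was 1.36 and 2.08 in SP Gr-1lo, 0.195 and 0.334 in BM Gr-1lo, 0.0293 and 0.0113 in SP Gr-1hi, and 0.000906 and 0.00153 in BM Gr-1hi libraries, with no overlap between any of the 4 groups. This ratio restates the levels of both genes given above and is not a separate result.

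The level of each gene in Gr-1lo cells was also set against that in Gr-1hi cells of the same tissue, beside the neutrophil markers. Mmp9 in Gr-1lo libraries was at 0.213% to 0.466% of the Gr-1hi mean, close to the markers Retnlg, at 0.197% to 0.416%, Cxcr2, at 0.504% to 1.07%, and Ly6g, at 0.414% to 1.99%. The marker Csf3r lay well above Mmp9, at 4.36% and 4.41% in SP libraries 7 and 8 and 6.00% and 5.40% in BM libraries 11 and 12. Mmp8 was at 4.02% to 10.2%, in the range of S100a8 at 4.06% to 14.6% and S100a9 at 3.13% to 12.1%. Timp2 was at 1.78% to 2.13% in BM and 5.07% to 6.33% in SP, and Mmp25 at 1.29% to 2.08% in BM and 4.53% to 4.78% in SP. The granule genes Ltf, Camp, Ngp and Lcn2 had values from 1.39% for Ltf in BM library 11 to 34.7% for Camp in SP library 7. Some other granule genes lay outside this range. On average, Adam8 had 23.4 CPM in BM Gr-1lo and 2163 CPM in BM Gr-1hi. Chil3 had 3137 CPM in SP Gr-1lo and 2776 CPM in SP Gr-1hi. Members that shared a direction between the subsets thus did not share a proportion. How much of these levels came from Gr-1hi cells within the Gr-1lo gate was not tested.

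**Figure D4:**
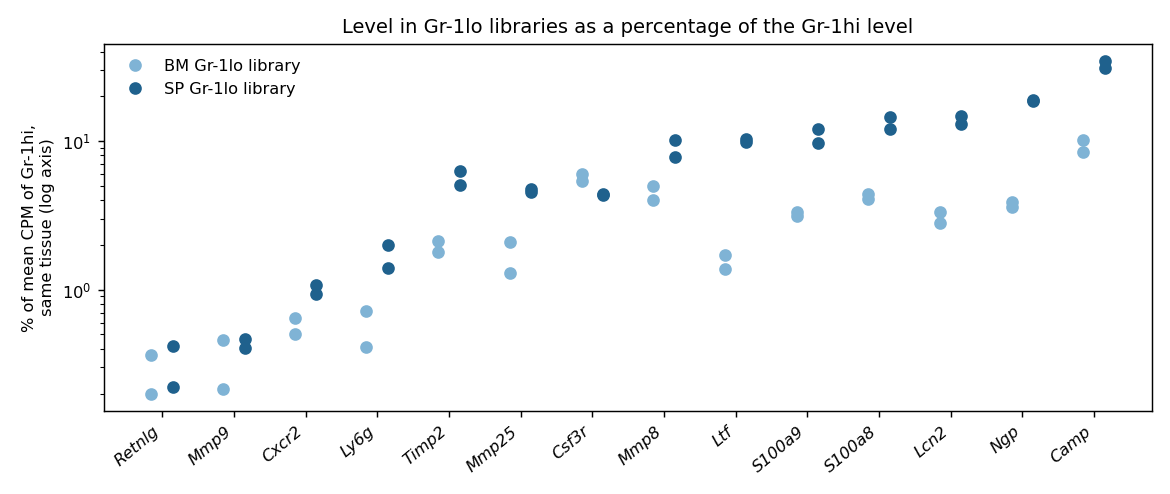
Level of 4 member genes, 6 neutrophil markers and 4 granule genes in each Gr-1lo library, as a percentage of the mean CPM of the Gr-1hi libraries of the same tissue (log axis). Mmp9 lies beside Retnlg at the low end, below 0.5%, and Mmp8 lies between 4.02% and 10.2%.

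Other MMP genes were mostly silent. Of 18 further MMP genes, 5 passed the filter, and the highest was Mmp27, with 8.98 ± 0.563 CPM in BM Gr-1hi (SD, n = 2), 3.63 ± 0.496 in SP Gr-1hi, and 0.525 and 0.523 CPM on average in BM and SP Gr-1lo libraries. By the thresholds above, Mmp27 and Mmp23 were called higher in BM Gr-1hi than BM Gr-1lo cells (log2 FC 4.08 and 4.97) and Mmp17 lower (-3.68), Mmp23 was called higher in SP Gr-1hi than SP Gr-1lo cells (3.95), and Mmp27 was called lower in SP than BM Gr-1hi cells (-1.31, adjusted p = 0.0102). The calls of Mmp17 and Mmp23 rest on few counts in the lower group. Mmp17 had 1 count in all over the 2 BM Gr-1hi libraries and 29 over the 2 BM Gr-1lo libraries. Mmp23 had 99 and 6 counts over the same libraries, and 69 and 9 over those of SP Gr-1hi and SP Gr-1lo. Mmp28, with 0.807 to 3.56 CPM on average, was called nowhere. None of the 5 was called between SP and BM Gr-1lo cells, where 4.06% of all genes were called. Mmp2, the gelatinase whose precursor MMP14 activates, had 12 and 28 counts in all over the 2 SP Gr-1hi and the 2 SP Gr-1lo libraries, and 1 and 3 over those of BM. Mmp8 and Mmp27 lie in a run of 10 MMP genes on chromosome 9, from 7272514 to 7699585. The other 8 genes of this run had at most 62 counts each over all 8 libraries, against 629064 for Mmp8.

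Of 4 further inhibitors, Reck, a membrane-anchored inhibitor of MMP9 and MMP14, had the highest level, with 62.8 CPM in BM Gr-1hi, 37.9 in SP Gr-1hi, 4.86 in SP Gr-1lo and 2.38 in BM Gr-1lo on average. It was called higher in BM Gr-1hi than BM Gr-1lo cells (log2 FC 4.72 ± 0.174, adjusted p = 1.51e-07) and higher in SP than BM Gr-1lo cells (1.02, adjusted p = 0.00941), and its interaction was -1.75 (adjusted p = 0.00359). Spock2 was called in no comparison, and Timp4 and A2m had at most 3 counts in any group.

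Among 13 activators and partners of MMPs, 11 were tested. In BM, 2 were called higher in Gr-1hi cells and 4 lower, against 6.56% and 10.1% of all genes. The higher ones were Lcn2, whose product binds MMP9 (log2 FC 5.02), and Plaur, the urokinase receptor (3.27). The lower ones were Elane (-7.53), Prtn3 (-6.84) and Ctsg (-5.92), the serine proteases of primary granules that can activate MMP precursors, and Lrp1 (-5.30), a receptor that clears MMPs. In SP, 0 were called higher and the same 4 genes lower, against 4.44% and 2.93% of all genes. The log2 FCs of the 4 were -8.31, -6.61, -6.61 and -4.82. Between SP and BM Gr-1hi cells, Lrp1 was called higher (1.11) and Ctsg (-2.06) and Elane (-1.65) lower. Between SP and BM Gr-1lo cells, Lcn2 was called higher (1.34) and Ctsg lower (-1.36). Cd44, which can hold MMP9 at the cell surface, had 1229 to 1315 CPM on average in Gr-1hi and 340 to 416 CPM in Gr-1lo groups, and was called in no comparison at these thresholds. For Lcn2 and Plaur the interaction was -2.17 (adjusted p = 0.00362) and -1.32 (adjusted p = 0.0186), both called.

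Of 15 ADAM and ADAMTS genes, relatives of the MMPs, 11 were tested. In BM, 4 were called higher in Gr-1hi cells, namely Adam8 (log2 FC 6.53), Adamts5 (5.92), Adam19 (4.24) and Adam12 (3.17), and in SP 3 of these, Adam8 (5.20), Adam19 (5.06) and Adamts5 (4.13). None was called lower in either tissue. Of all genes, 6.56% were called higher and 10.1% lower in BM, and 4.44% and 2.93% in SP. Adamts5 had 2 and 8 counts in all in BM and SP Gr-1lo, against 69 and 72 in Gr-1hi. Adam23 and Adamdec1, a protease of macrophages and dendritic cells, were called higher in SP in both subsets, with log2 FCs of 6.92 and 4.15 in Gr-1hi and 3.52 and 4.20 in Gr-1lo cells. These differences rest on few counts in BM. Over the 2 libraries of a group, Adam23 had 176 counts in SP and 1 in BM Gr-1hi, and 63 and 4 in Gr-1lo. Adamdec1 had 340 in SP and 15 in BM Gr-1hi, and 142 and 6 in Gr-1lo. Adam12 was called lower in SP Gr-1hi cells (-1.91). The interaction was called for Adam8 (-1.33). Adam8 was the most abundant, with 2163 CPM in BM Gr-1hi and 1121 CPM in SP Gr-1hi on average, and Adam15, with 113 to 183 CPM in every group, was called in no comparison.

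Of 14 secondary and tertiary granule genes, the stores in which MMP8 and MMP9 lie, 13 were tested. In BM, 8 were called higher in Gr-1hi cells, against 6.56% of all genes, led by Adam8 (log2 FC 6.53), Ltf (6.01), Olfm4 (5.71) and Lcn2 (5.02). In SP 3 were called higher, against 4.44% of all genes, namely Adam8 (5.20), Olfm4 (3.74) and Ltf (3.30). The number called lower was 0 in both, against 10.1% of all genes in BM and 2.93% in SP. Between SP and BM Gr-1lo cells, Ltf (log2 FC 2.02), Ngp (1.55) and Lcn2 (1.34) were called higher in SP, and between SP and BM Gr-1hi cells Olfm4 (-1.21) was called lower. In the interaction, 8 were called with a smaller difference in SP and 0 with a larger one, against 2.00% and 7.74% of all genes. The 8 were led by Ltf (-2.71), Ngp (-2.32), Lcn2 (-2.17) and Olfm4 (-1.96), and the median over the 13 genes was -1.35. Of the members, Timp2 and Mmp25 lay below this median, at -1.55 and -1.47, and the other 5 above it, from -1.01 for Mmp8 to 1.38 for Timp1. Adam8 and Lcn2 stand on 2 of these lists.

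As a description of likeness, the Pearson correlation of log2 CPM over the 8 libraries was taken between each member and the 9751 other tested genes with at least 10 CPM in a group. Since the libraries fall into 4 groups, a high value says mainly that the group levels are ordered alike. The closest genes were Vps37c and Bmx for Mmp8 (0.999 each), Cggbp1 and Ccni for Mmp9 (0.999 each), Adprh and Sugp1 for Mmp25 (0.999 each), Csnk1g1 and Fpr1 for Timp2 (above 0.999), Dnajc1 and Gab1 for Mmp19 (0.997 and 0.996), and Il2rg and Gpr132 for Mmp14 (0.990 and 0.987). For Timp1, Tor2a and Il6ra reached 0.951 and 0.912. Among the members, Mmp25 and Timp2 were the most alike (0.994), followed by Mmp25 and Mmp9 (0.992).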

How the data were processed

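Libraries of poly(A) RNA were made with a stranded kit and sequenced as paired ends. Per the study's methods, FastQC 0.11.8 served for quality checks and Sickle 1.33 for trimming, and reads were aligned to GRCm38.p6 with STAR 2.5.3a and counted on GENCODE M24 genes with featureCounts (Subread 1.6.4), per the labels as stranded counts, with the strand option itself not given in the sources used here. The authors deposited the raw counts of 54188 genes, without normalization. The TPM and quantile normalization they tested were not used here as the main values.

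Counts were filtered with filterByExpr (17650 genes left), scaled by TMM and fitted with edgeR 4.0.16 (robust quasi-likelihood, R 4.3.3) in a single model of the 8 libraries with a term per group and 4 residual degrees of freedom. The Benjamini-Hochberg adjustment covered all genes tested. The SE is the log2 FC divided by the square root of F. Exon lengths and coordinates came from GENCODE M21 on the same build, which holds 53947 of the genes. Groups were taken from the sample titles. The alternatives were RLE and upper-quartile scaling, no filter, DESeq2 1.42.0, quantile-normalized log2(TPM + 1) with limma 3.58.1, a fit of the 4 libraries compared, and leaving out libraries. The procedure was tested on simulated data. The 8 members are always named; of the other lists, up to 3 genes of highest level and up to 4 called genes by absolute log2 FC are named, and further names (Lcn2 and Plaur in BM, Mmp2, Tmem198b, Syn1) were chosen after their values were seen. Members and lists were chosen with earlier results of these data known. The self-made lists cover other MMPs, other inhibitors, activators and partners, ADAM and ADAMTS genes, granule genes and cell type markers. The sum over 5 endothelial markers was 1.10 to 1.65 CPM and over 6 megakaryocyte and platelet markers 0.887 to 7.81 CPM, over all libraries. P values reflect the spread between 2 libraries per group.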

Additional observations from a re-analysis of the deposited data

Results flagged for a closer look

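In 2 genes the difference between Gr-1hi and Gr-1lo cells differed between the tissues by the interaction test of edgeR's quasi-likelihood method. The interaction log2 FC was -1.55 for Timp2 (adjusted p = 0.00313), whose Gr-1hi over Gr-1lo log2 FC was 5.68 in BM and 4.13 in SP, and this was called under all 14 alternatives, with values of -1.73 to -1.28. It was -1.47 for Mmp25 (adjusted p = 0.0146), with 5.89 in BM and 4.42 in SP, and 12 of 14 alternatives called it, with values of -1.85 to -1.16. Both genes had lower levels in SP among Gr-1hi libraries and higher levels in SP among Gr-1lo libraries, the same libraries that enter the interaction. In Gr-1hi cells the log2 FC of SP over BM was -1.10 for Timp2, which was called, and -0.89 for Mmp25, which was not. In Gr-1lo cells it was 0.45 for Timp2 (adjusted p = 0.113) and 0.58 for Mmp25 (adjusted p = 0.167), and neither was called.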

How the results depend on the processing

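The number of members called was 5 between the BM subsets without each library in turn, and 5 to 6 between the SP subsets. Between SP and BM Gr-1hi cells it was 4, and 2 to 5 without each library. It was 2 without the filter on low counts, 2 without libraries 5 and 7 and 1 on quantile-normalized TPM. Between SP and BM Gr-1lo cells it was 1, and 0 to 1 without each library and 0 without the filter. Without library 11 the gene called was Mmp9 in place of Mmp14, and without library 12 there was none. For the interaction it was 2, with 1 to 3 without each library and 1 without libraries 5 and 7. The direction turned only in differences that were not called. For Mmp9 in SP against BM Gr-1lo cells it ranged from -1.01 to 0.11 without each library (0.11 without library 12), and in the interaction from -1.04 to 0.075 (0.075 without library 11). The interaction of Mmp19 was -0.27 on quantile-normalized log2(TPM + 1), a scale that shrinks differences at low levels. That of Mmp14 ranged from -1.12 to 0.30 without each library, with 0.16 without library 6 and 0.30 without library 8, and was -1.39 without libraries 5 and 7. Without each library, Timp1, with few counts, ranged from -0.61 to 1.02 in SP against BM Gr-1lo cells (-0.61 without library 7 and -0.45 without library 12; it was -0.62 without both libraries 5 and 7), from -1.58 to 0.51 between the SP subsets (0.46 without library 6, 0.51 without library 7) and from -0.094 to 2.09 in the interaction (-0.094 without library 5). Of 510 recomputed values of single genes, 471 kept direction and side of the threshold, 18 lost and 10 gained the call, and 11 turned; the causes were not tested. RLE scaling moved the median log2 FC of all genes by 0.15 between the BM subsets and 0.13 between the SP subsets, and quantile-normalized TPM by 0.20 in the former and by -0.14 between SP and BM Gr-1hi cells. Without a library, the lone library of its group is assumed to vary like the others. No paired analysis was possible because the groups share no replicate numbers and no label names the mouse. The study calls the BM cells autologous, so libraries of different groups may share a mouse. Any such pairing was ignored. Depth limits Timp1 and Timp3.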

Other observations

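Mmp27 lies 2910 bases after the end of Mmp8 on the same strand of chromosome 9, and its counts were a small share of those of Mmp8, between 0.105% and 0.229%. They were 0.148% and 0.105% of the Mmp8 counts in SP Gr-1hi libraries 5 and 6, 0.123% and 0.126% in BM Gr-1hi libraries 9 and 10, 0.219% and 0.157% in SP Gr-1lo libraries 7 and 8, and 0.109% and 0.229% in BM Gr-1lo libraries 11 and 12. Over the same libraries the Mmp8 counts ranged from 14590 to 203360 and those of Mmp27 from 19 to 251. Whether these counts come from Mmp27 transcripts of its own start was not tested.

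Syn1, a synapsin gene whose intron holds Timp1 on the other strand, had more counts than Timp1 in every Gr-1hi library, with 135 to 276 counts against 1 to 9. In Gr-1lo libraries Syn1 had 4 to 16 counts and Timp1 5 to 14.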
